A study of Mus musculus with 6 samples.

Results

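The 9 genes described here encode kinases of the mitogen-activated protein (MAP) kinase cascades that lie below Toll-like receptor 4 (Tlr4), the receptor for lipopolysaccharide (LPS). They were taken by symbol from 24411 genes counted in 6 RNA-seq libraries, and all 9 had a row in every library. They comprise Map3k8, the MAP2K genes Map2k1, Map2k3 and Map2k4, the MAP kinase genes Mapk3, Mapk8 and Mapk14, and the effector kinase genes Mapkapk2 and Mapkapk3. The libraries came from primary microglia, the resident macrophages of the brain, grown from pooled whole brains of 12 ICR mice killed at 3 days of age and shaken off mixed glial cultures. All 6 cultures received FTY720 (fingolimod, a sphingosine analogue) at 1 µM for 4 h, and 3 of them also received LPS at 10 ng/ml. Neither untreated cells nor cells given LPS without FTY720 were analysed here, so the comparison is the addition of LPS in the presence of FTY720. The labels call the triplicates biological but do not say whether each came from its own pool of mice, so p-values measure the spread between these samples.

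A MAP kinase cascade is a relay in which a MAP3K phosphorylates a MAP2K, which phosphorylates a MAP kinase on the threonine and tyrosine of its activation loop. In macrophages and microglia LPS switches on the ERK, JNK and p38 branches within minutes. The ERK branch runs through Tpl2 (the product of Map3k8), and p38 acts through the kinases MK2 and MK3 (Mapkapk2 and Mapkapk3) on the stability and translation of cytokine mRNAs. The counts measure transcripts and not protein or phosphorylation.

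Reads assigned to genes on the sense strand numbered 2431775 to 3454647 per library, of which ribosomal RNA-like rows took 28.8% to 59.0%. The kinases had 8 to 1276 reads per library each, so Mapkapk3 with LPS, at 8 to 23 reads, is the least precise value. Levels are given in CPM (a gene's reads relative to the library's total, in the usual per-million unit) scaled with edgeR's TMM factors, and a count of 0 allows up to 0.706 to 1.5 CPM (3 reads), depending on the library. FTY720 replicate 3 stood apart from the other libraries along the second principal component (7.37% of the variance, at -22.39, where the others lay between -7.994 and 15.96). Of 15 microglia markers 11 had enough reads to test, and Tmem119, Sall1, Siglech and Olfml3 were too scarce. Sall1 had 38 reads with FTY720 and 9 with LPS (3.74 against 1.35 CPM). Tmem119 had 8 and 11 reads, Siglech 0 and 1, and Olfml3 26 and 31. By edgeR 10 of the 11 tested markers were higher with LPS and 0 lower, with the same counts by unadjusted p. DESeq2 called 8 higher and 0 lower. The shares of all tested genes were 23.3% higher and 22.7% lower by edgeR, and 16.2% and 10.1% by DESeq2. No microglia marker was at 0 reads throughout, and the markers' summed level was 2599 to 2813 CPM with FTY720 and 4202 to 4857 CPM with LPS added.

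Adding LPS raised 7 of the 9 kinase transcripts and lowered 1. Map2k3 rose most, 6.32-fold, followed by Map3k8, Mapkapk2, Map2k1 and Map2k4 at 2.33-fold to 2.96-fold, whereas Mapkapk3 fell 4.85-fold. The 3 MAP kinases themselves moved least, with log2 fold changes of 0.34 to 0.68. All 9 genes passed the low-count filter, which kept 10124 genes. A gene was called where edgeR's quasi-likelihood test gave an adjusted p under 0.05, which held for 46.0% of all tested genes, 23.3% higher and 22.7% lower. The median log2 fold change was 1.22 over the 9 kinases and -0.04 over all genes tested. For 8 of the 9 the groups did not overlap, as for 54.0% of all tested genes, and 5 were called and at least 2-fold higher, as were 8.49% of all tested genes. The fall of Mapkapk3 also exceeded 2-fold, as did the called falls of 9.59% of all tested genes. Without TMM, scaled by total library size alone, 5 kinases were higher and 1 lower, when 34.1% of all tested genes were called, 7.57% higher and 26.6% lower.

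**Figure D1:**
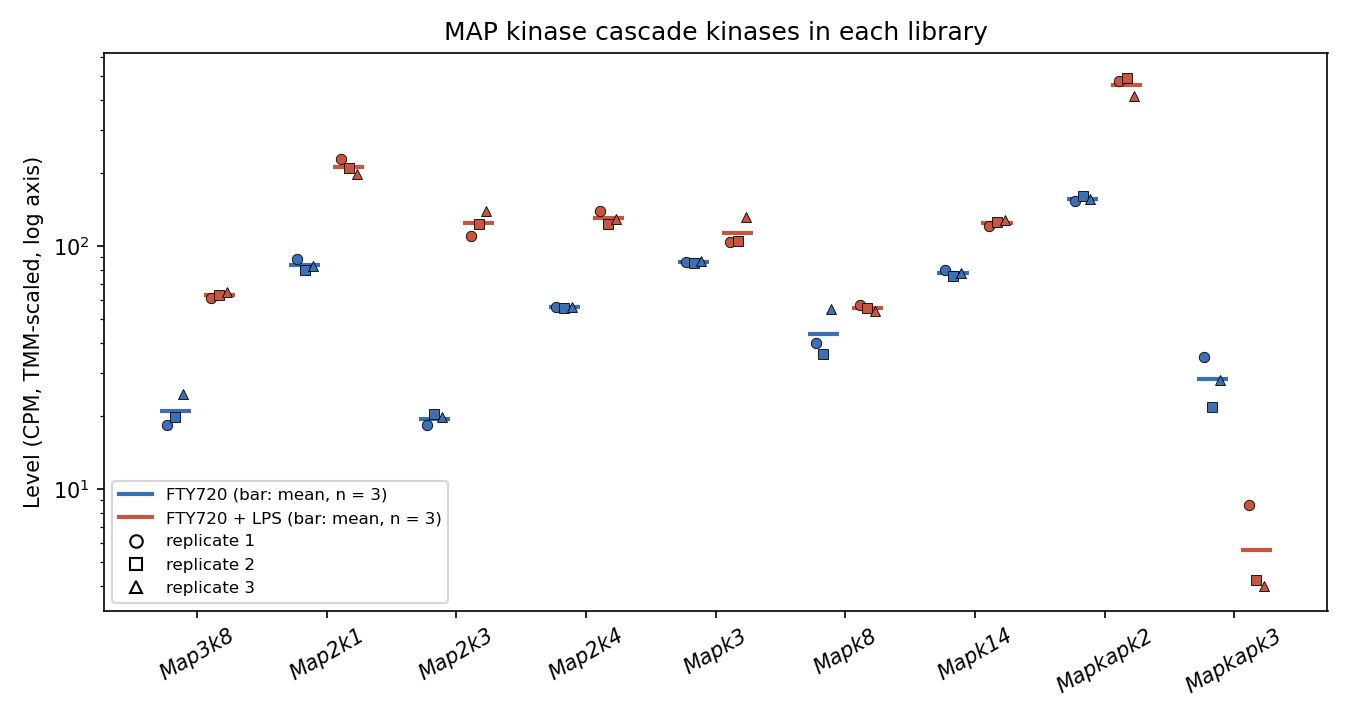
Level of each kinase transcript in the 6 libraries, in TMM-scaled CPM on a log axis, with FTY720 in blue and FTY720 with LPS in red. Points are single libraries (symbols mark replicate numbers) and bars are means of 3; the colours separate for every gene except Mapk8, and the order of the colours turns over at Mapkapk3.

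Map3k8 encodes Tpl2, the MAP3K that phosphorylates the ERK kinases MEK1 and MEK2 after LPS. Its level was 18.4, 19.7 and 24.7 CPM in the FTY720 libraries and 61.2, 62.6 and 64.6 CPM with LPS. The LPS libraries lay within a narrow band, and the lowest of them was well above the highest FTY720 library. Map3k8 rose 2.96-fold, a log2 fold change of 1.57 ± 0.16 (SE, n = 3 per group, edgeR adjusted p = 2.16e-08). Without FTY720 replicate 3, the highest of its group, it was 1.72 (edgeR adjusted p = 1.97e-12).

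In resting cells Tpl2 protein is held by p105, the Nfkb1 product, and by ABIN-2, the Tnip2 product. Nfkb1 rose 6.88-fold (2.78 ± 0.16, edgeR adjusted p = 9.28e-13). Tnip2 had 38 reads with FTY720 and 27 with LPS and was not called (0.03 ± 0.38), with a sign that turned under 4 alternatives. TAK1, encoded by Map3k7, is another MAP3K below Tlr4, and its transcript was not called either (0.26 ± 0.15, edgeR adjusted p = 0.144). The sign of Map3k7 turned with total library size alone. Among the TAK1-binding adaptors Tab2 (0.68 ± 0.14) and Tab3 (0.71 ± 0.16) rose and Tab1 fell from 133 reads to 27 (-1.79 ± 0.34, edgeR adjusted p = 0.000148). Tab2 and Tab3 lost their calls with total library size alone. Tnip2, Map3k7 and Tab1 were chosen after their values were seen.

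Of 20 other MAP3K and Raf genes listed, 16 were tested, 2 were higher and 7 lower (median log2 fold change -0.25). The shares of all tested genes were 23.3% and 22.7%, with a median of -0.04. DESeq2 called 2 higher and 6 lower, when 16.2% and 10.1% of all its tested genes were called. Map3k1, which encodes the JNK-activating kinase MEKK1, fell 3.51-fold (-1.81 ± 0.19, edgeR adjusted p = 3.95e-08). Map3k10 fell 2.24-fold and Map3k4 1.84-fold. Araf (-0.65 ± 0.18) and Braf (-0.50 ± 0.14), whose products feed growth factor signals into the ERK branch, were lower. They were chosen after their values were seen, and Braf lost its call without FTY720_LPS replicate 1 (-0.39, edgeR adjusted p = 0.063) and with replicates 1 and 2 summed (edgeR adjusted p = 0.0519). Map3k14, which encodes the NF-κB-inducing kinase, rose 2.35-fold (1.23 ± 0.24) and Map3k15 2.93-fold (1.55 ± 0.29). Among 6 tested MAP4K genes, upstream of the MAP3Ks, 0 were higher and 2 lower by edgeR, as at an unadjusted p under 0.05 and by DESeq2. These were Mink1 (-0.87 ± 0.20) and Map4k4 (-0.80 ± 0.24), the latter not called without FTY720 replicate 2 (-0.56, edgeR adjusted p = 0.063), without FTY720_LPS replicate 2 (-0.69, edgeR adjusted p = 0.0656) or with the trend of fold change on expression removed (-0.61, limma adjusted p = 0.0908).

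Map2k3 encodes MKK3, a MAP2K dedicated to p38. The gene lies on chromosome 11 from 60932033 to 60952811 (plus strand, GRCm38, GENCODE M21). It stood at 18.4, 20.4 and 19.8 CPM with FTY720 and 109.7, 123.1 and 138.7 CPM with LPS. Every LPS library exceeded every FTY720 library by a wide margin, with a log2 fold change of 2.66 ± 0.15 (SE, n = 3 per group, edgeR adjusted p = 4.89e-13). Map2k6, which encodes MKK6, the other p38 kinase, moved in the opposite direction in reads. It had 13, 12 and 25 reads with FTY720 and 3, 2 and 2 with LPS, too few for the main test. When all genes with at least 1 read were tested its log2 fold change was -2.25 ± 0.53 (edgeR adjusted p = 0.000176). Reads of Map2k3 outnumbered those of Map2k6 by 4.00 to 1 with FTY720 and by 123 to 1 with LPS. This and the later read ratios of 2 kinases use reads summed over the 3 libraries of a group. Within single libraries the log2 ratio (0.5 added to each count) was 1.728 to 2.299 with FTY720 and 6.395 to 6.865 with LPS, which no scaling factor touches.

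Promoter sequence is shown for the kinase that rose most and the one that fell, as the 250 bases before each RefSeq start site (GRCm38.p6, gene strand, 5′ to 3′). Windows of 300 bases (250 before to 50 after a start site) were searched on both strands for an NF-κB-like motif (GGG, any 2 bases, then TTTCC, in 1.63% of all 32851 RefSeq promoter windows), AP-1 (TGANTCA, 7.81%), CRE (TGACGTCA, 1.79%) and an interferon response-like motif (GAAA, any 2 bases, then GAAA, 3.44%). RefSeq windows were at hand for 7 of the 9 genes (11 windows), and matches were found in 2 windows, both of the last motif, 1 each at a second start site of Mapk14 and of Mapkapk3. A match is a description of letters and not a binding site. Capitals mark the match.
Map2k3 (chr11:60931804-60932053, plus strand): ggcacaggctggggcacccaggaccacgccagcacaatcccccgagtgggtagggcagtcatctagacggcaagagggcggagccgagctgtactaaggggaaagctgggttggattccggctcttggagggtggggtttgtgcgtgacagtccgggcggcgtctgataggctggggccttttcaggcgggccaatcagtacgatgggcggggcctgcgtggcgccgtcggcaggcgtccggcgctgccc
Mapkapk3, first start site (chr9:107289878-107290127, minus strand): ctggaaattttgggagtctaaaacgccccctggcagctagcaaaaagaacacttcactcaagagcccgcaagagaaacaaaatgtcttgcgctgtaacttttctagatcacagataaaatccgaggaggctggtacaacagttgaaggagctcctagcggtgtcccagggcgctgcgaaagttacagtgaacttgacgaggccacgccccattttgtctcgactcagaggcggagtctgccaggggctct
Mapkapk3, second start site (chr9:107289397-107289646, minus strand): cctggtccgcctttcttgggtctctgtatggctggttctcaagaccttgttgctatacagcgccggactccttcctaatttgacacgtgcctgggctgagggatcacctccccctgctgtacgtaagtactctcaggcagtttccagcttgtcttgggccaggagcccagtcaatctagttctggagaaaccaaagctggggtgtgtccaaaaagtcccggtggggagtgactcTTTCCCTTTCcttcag
The Map2k3 window was 68.0% G and C with 28 CpG dinucleotides, against 53.7% and 12 in the first window of Mapkapk3. Which start site these cells used was not measured by gene counts.

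Map2k1 encodes MEK1, the ERK kinase that Tpl2 phosphorylates. Its level was 88.1, 79.5 and 82.6 CPM with FTY720 and 229, 210.3 and 197.7 CPM with LPS, with no overlap between the groups. The rise was 2.55-fold (1.35 ± 0.12, SE, n = 3 per group, edgeR adjusted p = 1.46e-09). Map2k2, which encodes the close relative MEK2, rose 1.82-fold (0.86 ± 0.13, edgeR adjusted p = 1.44e-05; not called with total library size alone, 0.55, adjusted p = 0.121). The read ratio of Map2k1 to Map2k2 went from 1.91 to 2.67.

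Map2k4 encodes MKK4, which phosphorylates JNK and can phosphorylate p38. It was at 56.1, 55.8 and 56.3 CPM in the FTY720 libraries, the tightest group of any of the 9 genes, and at 139.1, 123.1 and 129.7 CPM with LPS. Its rise of 2.33-fold (1.22 ± 0.12, edgeR adjusted p = 1.94e-08) again left the groups apart. Map2k7, which encodes the JNK-specific MKK7, was not called (-0.31 ± 0.16, edgeR adjusted p = 0.114), and was called lower with upper-quartile factors (-0.45, edgeR adjusted p = 0.0232). Map2k4 reads were 1.39 times those of Map2k7 with FTY720 and 4.07 times with LPS.

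**Figure D2:**
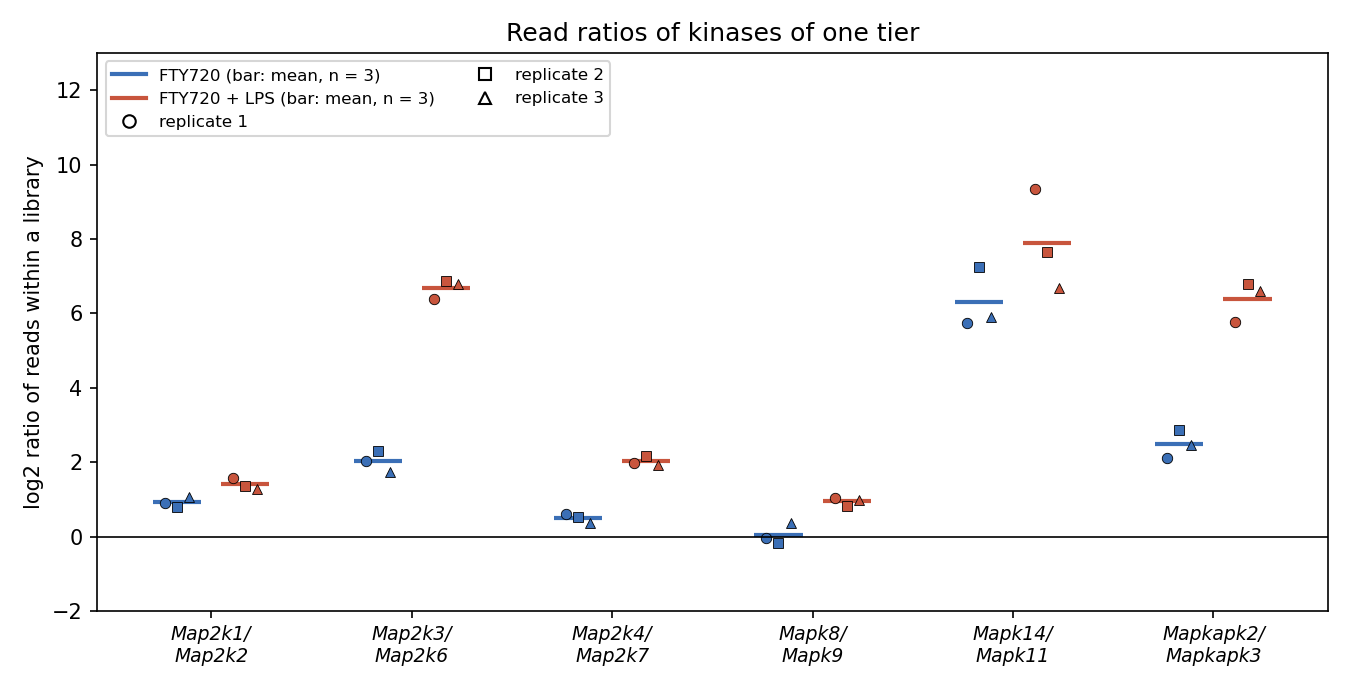
Log2 ratio of sense reads (each with 0.5 added) of 2 kinases of one tier within each library, FTY720 in blue and FTY720 with LPS in red, bars showing means of 3. The groups separate for 5 of the 6 pairs, by most for Map2k3 over Map2k6 and Mapkapk2 over Mapkapk3, and overlap for Mapk14 over Mapk11. Single genes had groups that did not overlap for 54.0% of all tested genes.

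Of 7 such pairs tested 6 are reported here, and the within-library ratio separated the groups in 5 of these, with a difference in mean log2 ratio of 4.66 for Map2k3 over Map2k6, 3.89 for Mapkapk2 over Mapkapk3, 1.52 for Map2k4 over Map2k7, 0.91 for Mapk8 over Mapk9 and 0.48 for Map2k1 over Map2k2. In each of these the ratio was higher with LPS in 3 of 3 libraries. Taken singly, 54.0% of all tested genes also had groups that did not overlap. A share over other pairs of genes was not computed, so the count of pairs has no background of its own. The exact two-sided permutation p was 0.1 for each, the smallest that 3 against 3 libraries allow, and 0.14 adjusted over the 7 pairs. With a pseudocount of 2 the Map2k3 over Map2k6 difference was 4.15, since it rests on 7 Map2k6 reads with LPS.

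Mapk3 encodes ERK1. It was at 86.1, 84.8 and 86.9 CPM with FTY720 and 103.7, 104.5 and 132.2 CPM with LPS. The groups did not overlap, and LPS replicate 3 was the high library. The test called a 1.32-fold rise (0.40 ± 0.13, edgeR adjusted p = 0.013). That call ended without FTY720_LPS replicate 3 (0.30, edgeR adjusted p = 0.0695), with upper-quartile factors (0.26, 0.0846), with total library size alone (0.065, 0.887) and after removal of the trend of fold change on expression (0.08, limma adjusted p = 0.6).

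Mapk8 encodes JNK1. Its levels were 40.1, 36.1 and 54.9 CPM with FTY720 and 57.4, 55.4 and 54.1 CPM with LPS. FTY720 replicate 3 was as high as the LPS libraries, so the groups overlapped, and Mapk8 was the one kinase of the 9 that was not called (0.34 ± 0.16, 95% interval 0.013 to 0.66, edgeR adjusted p = 0.0828). Without that library it was called (0.55, edgeR adjusted p = 0.000843), which brought the count to 8 higher and 1 lower, with 50.9% of all tested genes called (26.6% higher and 24.3% lower). With total library size alone it lay at -0.02. Mapk9, which encodes JNK2, fell (-0.53 ± 0.15, edgeR adjusted p = 0.00689; -0.50 with DESeq2, adjusted p = 0.0569). Reads of the pair went from near parity (ratio 1.08) to 1.94 Mapk8 reads per Mapk9 read.

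Mapk14 encodes p38α, the main p38 of myeloid cells. It stood at 79.8, 75.5 and 77.7 CPM with FTY720 and 120.8, 126.1 and 127.7 CPM with LPS. Both groups were tight and did not overlap, and the rise was 1.61-fold (0.68 ± 0.12, SE, n = 3 per group, edgeR adjusted p = 4.76e-05). With total library size alone the value was 0.36 and not called (edgeR adjusted p = 0.34), while removing the trend of fold change on expression left 0.38 (limma adjusted p = 0.00746). The other p38 genes were scarce, with 10 reads against 3 for Mapk11, 6 against 4 for Mapk12 and 0 in all libraries for Mapk13.

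Among 11 other MAP kinases 6 were tested, 1 was higher and 4 were lower (median -0.57), where DESeq2 called 1 higher and 1 lower. The shares of all tested genes were 23.3% and 22.7% by edgeR, and 16.2% and 10.1% by DESeq2. Mapk7, which encodes ERK5, fell 2.52-fold (-1.33 ± 0.23) and Nlk 1.53-fold (-0.61 ± 0.17; DESeq2 adjusted p = 0.0504). Mapk10, the JNK3 gene known from neurons, was lower by edgeR (-0.83 ± 0.31, adjusted p = 0.0325) but not by DESeq2 (-0.77, adjusted p = 0.191) or in 5 further alternatives, among them those without FTY720 replicate 3 (-0.54, 0.174), FTY720_LPS replicate 1 (-0.56, 0.208) or FTY720_LPS replicate 2 (-0.87, 0.0738). Mapk6, which encodes the atypical ERK3, was higher (0.44 ± 0.12), a call that ended with total library size alone and with the expression trend removed.

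Mapkapk2 encodes MK2, the p38-activated kinase that phosphorylates tristetraprolin and thereby stabilises cytokine mRNAs. It was the most abundant of the 9 kinases in reads, at 153.2, 159.9 and 156.1 CPM with FTY720 and 475.9, 489.5 and 413.5 CPM with LPS. The groups were far apart. The rise was 2.94-fold (1.56 ± 0.11, SE, n = 3 per group, edgeR adjusted p = 3.94e-11). It was 0.97 with the expression trend removed (limma adjusted p = 1.12e-06), the largest move of any of the 9 genes under that setting.

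Mapkapk3 encodes MK3, which shares substrates with MK2. The gene lies on chromosome 9 from 107254927 to 107289877 (minus strand). It had 105, 65 and 119 reads with FTY720 and 23, 10 and 8 with LPS, which is 35.0, 21.7 and 28.0 CPM against 8.58, 4.23 and 4.01 CPM. The groups did not overlap, although LPS replicate 1 held more than the other two of its group together. The fall was 4.85-fold (-2.28 ± 0.27, SE, n = 3 per group, edgeR adjusted p = 3.93e-07). It kept its direction and call in 17 of 17 alternatives, with log2 fold changes from -2.73 to -2.08 and adjusted p of at most 8.59e-05. For every Mapkapk3 read there were 5.54 Mapkapk2 reads with FTY720 and 79.5 with LPS. In bulk RNA, fewer cells of a type and less RNA per cell cannot be told apart.

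Markers of oligodendrocytes and neurons were lower with LPS, as Mapkapk3 was. The astrocyte list, the fibroblast, mural and endothelial list and the joint list of monocytes and border macrophages were not lower. Of all tested genes edgeR called 23.3% higher and 22.7% lower, and DESeq2 16.2% and 10.1%. Oligodendrocyte-lineage markers were lower in 5 of 6 tested and higher in 0 by edgeR, unadjusted p and DESeq2 alike (8 listed, none at 0 reads throughout), and their summed level was 268.0 to 292.6 CPM with FTY720 and 142.1 to 162.7 CPM with LPS. Neuron markers were lower in 3 of 4 tested by edgeR and in 2 by DESeq2, and higher in 0 by both (7 listed, none at 0 throughout). Their summed level was 187.9 to 251.0 against 106.6 to 117.5 CPM. Astrocyte markers were higher in 2 and lower in 1 of 7 tested by edgeR, as by DESeq2 (8 listed, none at 0 throughout). At an unadjusted p under 0.05, 2 were higher and 2 lower. Their summed level was 94.8 to 113.5 against 107.0 to 146.2 CPM. Fibroblast, mural and endothelial markers were called in 0 of 5 tested by edgeR and 0 by DESeq2, with 3 higher at an unadjusted p under 0.05 (9 listed, none at 0 throughout), at 88.8 to 169.3 against 139.2 to 201.8 CPM. Monocyte and border macrophage markers were higher in 3 of 3 tested by edgeR and in 2 by DESeq2 (8 listed, Ly6c2 at 0 throughout), at 165.6 to 180.5 against 312.2 to 341.4 CPM. The 3 tested were Ms4a7, Mrc1 and Pf4. Ccr2 (3 reads with FTY720 and 2 with LPS), Plac8 (0 and 2), Ly6c2, Lyve1 and Cd163 were too scarce, so nothing is said of them. The part of other cells in the fall of Mapkapk3 or of the other lower genes, and that of the higher summed microglia markers in the rises, was not tested.

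Of 8 other effector kinases tested, 3 were higher and 2 lower (median 0.42), beside 23.3% and 22.7% of all tested genes. DESeq2 called 2 and 2, beside 16.2% and 10.1% of all its tested genes. Mknk2 and Mknk1 encode the MNK kinases that phosphorylate the translation factor eIF4E. Mknk2 had 270.6, 271.8 and 281.1 CPM with FTY720 and 1043, 1112 and 1304 CPM with LPS, a 4.20-fold rise (2.07 ± 0.11, edgeR adjusted p = 2.73e-13). Mknk1 had 69.4, 60.8 and 60.3 CPM against 33.6, 26.7 and 24.5 CPM, a 2.22-fold fall (-1.15 ± 0.15, edgeR adjusted p = 2.16e-06). The 2 groups were apart for both genes. Rps6ka1, which encodes the ERK-activated kinase RSK1, fell 2.94-fold (-1.56 ± 0.27). Mapkapk5, which encodes MK5, rose 1.75-fold (0.81 ± 0.24) and Rps6ka5, which encodes the histone kinase MSK1, 1.51-fold (0.60 ± 0.19), and both lost the call with total library size alone, Rps6ka5 also with DESeq2 (adjusted p = 0.0507).

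Per kilobase of transcript the order of the 9 kinases changed with LPS. Lengths were those of the longest coding transcript in GENCODE M21, which need not be the one expressed. With FTY720 the order was Mapkapk2 (54.8 ± 1.18 CPM per kb, SD, n = 3), Mapk3 (47.7 ± 0.583), Map2k1 (34.2 ± 1.8), Mapk14 (21.6 ± 0.60) and Map2k4 (15.2 ± 0.0701), each above the next in every library. Mapkapk3 (10.0 ± 2.37), Map2k3 (8.87 ± 0.470), Map3k8 (8.14 ± 1.31) and Mapk8 (7.58 ± 1.72) followed with overlapping ranges. With LPS Mapkapk2 (161 ± 14.2) stayed first and Map2k1 (87.2 ± 6.46) came second, ahead of Mapk3 (63.0 ± 9.01) and Map2k3 (56.3 ± 6.61), whose ranges overlapped. Map2k4 (35.4 ± 2.18) and Mapk14 (34.8 ± 0.992) overlapped too, above Map3k8 (24.4 ± 0.666), Mapk8 (9.67 ± 0.295) and Mapkapk3 (1.99 ± 0.915), which were apart from one another. Mapkapk3 thus went from rank 6 to rank 9 and Map2k3 from rank 7 to rank 4.

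**Figure D3:**
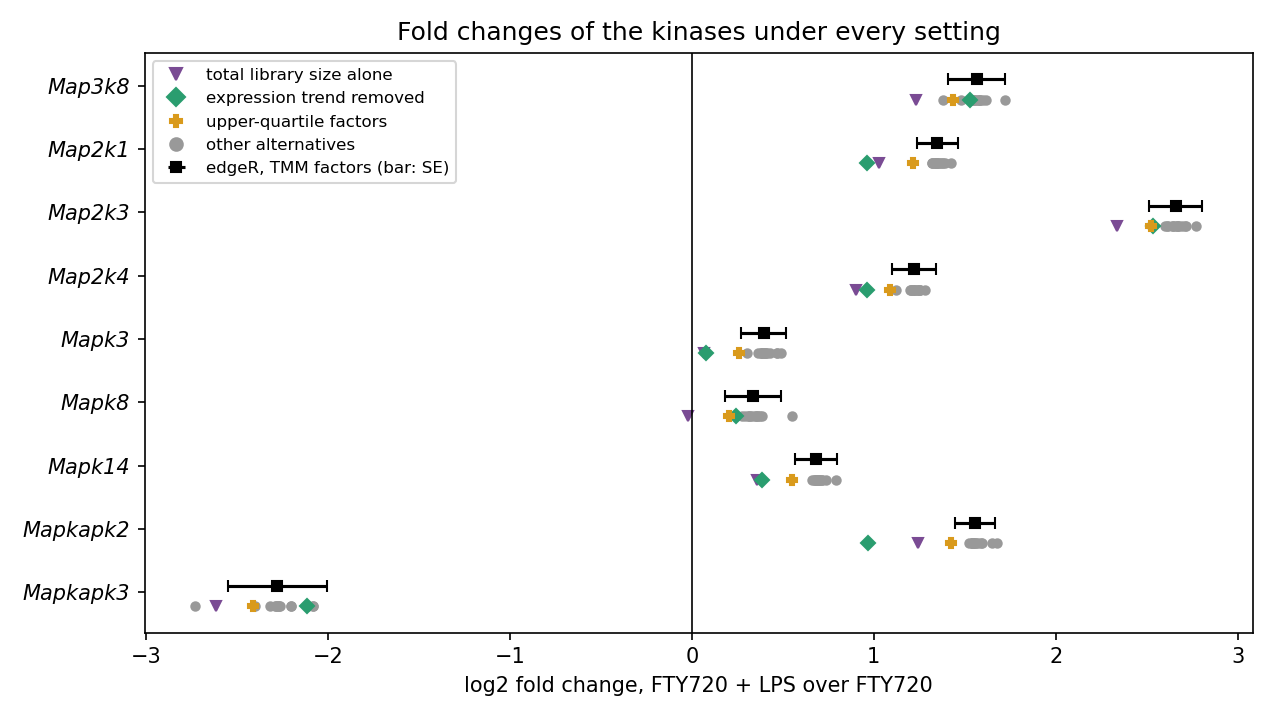
Log2 fold change of each kinase, FTY720 with LPS over FTY720, under the main test (black squares with SE) and under 17 alternatives (points below each square). Positive values are higher with LPS; Mapk8 is the only gene whose points reach the other side of 0 (-0.02 with total library size alone), and removing the expression trend (green diamonds) moves Mapkapk2 to 0.97.

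The groups of genes around the 9 kinases were mixed. Of 69 other cascade genes (MAP4K, MAP3K and Raf, TAK1 and Tpl2 partners, MAP2K, MAP kinase, effector kinase and scaffold lists) 56 were tested, with 13 higher, 21 lower and a median log2 fold change of -0.12. The shares of all tested genes were 23.3% and 22.7%. Scaling by total library size alone left 5 of the 56 higher and 22 lower, when 7.57% and 26.6% of all tested genes were called. DESeq2, which called 26.3% of all its tested genes (16.2% higher, 10.1% lower), gave 12 and 15 among the listed genes that passed its own filter. Among 12 tested scaffolds and adaptors 3 were higher and 5 lower (median -0.09), and by DESeq2 3 and 2. Ksr1, a scaffold of the Raf, MEK and ERK tier, rose 2.17-fold (1.12 ± 0.25). Iqgap1 (0.44 ± 0.16) and the JNK scaffold Spag9 (0.38 ± 0.11) were higher by edgeR, but neither was called with upper-quartile factors, with total library size alone or with the expression trend removed, where Spag9 turned to -0.15. Iqgap1 was not called either without FTY720 replicate 3 (0.20, edgeR adjusted p = 0.0587), FTY720_LPS replicate 2 (0.45, 0.0752) or FTY720_LPS replicate 3 (0.44, 0.0836). The β-arrestin gene Arrb2 fell 1.99-fold (-0.99 ± 0.15), and the JNK scaffold gene Mapk8ip1 (-0.59 ± 0.24, edgeR adjusted p = 0.0496) kept its call in 4 of 17 alternatives. Arrb1 was lower by edgeR (-0.65 ± 0.21, adjusted p = 0.016) but lost the call in 6 of 17 alternatives. These were DESeq2 (-0.62, adjusted p = 0.0706), length and GC correction (-0.35, edgeR adjusted p = 0.109), replicates 1 and 2 summed (-0.49, 0.103), and the fits without FTY720 replicate 1 (-0.57, 0.0631), FTY720_LPS replicate 1 (-0.59, 0.0759) or FTY720_LPS replicate 2 (-0.40, 0.162).

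Genes that respond to or are acted on by MAP kinases were also examined. Over all tested genes edgeR called 23.3% higher and 22.7% lower, and DESeq2 16.2% and 10.1%. With total library size alone edgeR called 7.57% of all tested genes higher. Of 9 tested dual-specificity phosphatases of MAP kinases 7 were higher and 0 lower (median 0.84), of which scaling by total library size alone left 3. At an unadjusted edgeR p under 0.05, 8 were higher and 0 lower, and by DESeq2 5 and 0. Dusp2 rose 29.8-fold (4.90 ± 0.26), Dusp5, a nuclear ERK phosphatase, 8.33-fold (3.06 ± 0.24), and Dusp10, which acts on p38 and JNK, 3.43-fold (1.78 ± 0.26). Of 10 tested genes known as ERK targets 5 were higher and 0 lower by edgeR (median 0.50), as at an unadjusted p under 0.05 and by DESeq2. Phlda1 rose from 30 reads to 350 (4.09 ± 0.29), Etv5 8.46-fold (3.08 ± 0.18) and Ier3 4.49-fold (2.17 ± 0.12). Of 14 tested substrates 4 were higher and 4 lower (median -0.28), and by DESeq2 4 and 2. Jund rose 3.03-fold and Atf2 2.02-fold (1.02 ± 0.13), as did Zfp36, the tristetraprolin gene, at 1.98-fold (0.98 ± 0.13; 0.67 with total library size alone, adjusted p = 0.0553). Mef2d (-0.88 ± 0.17), Jun (-0.62 ± 0.13) and Atf1 (-0.65 ± 0.20) fell, Atf1 without a call when FTY720_LPS replicate 1 (-0.57, edgeR adjusted p = 0.0686) or 3 (-0.56, 0.0552) was left out, or by DESeq2 (-0.62, adjusted p = 0.0991).

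**Figure D4:**
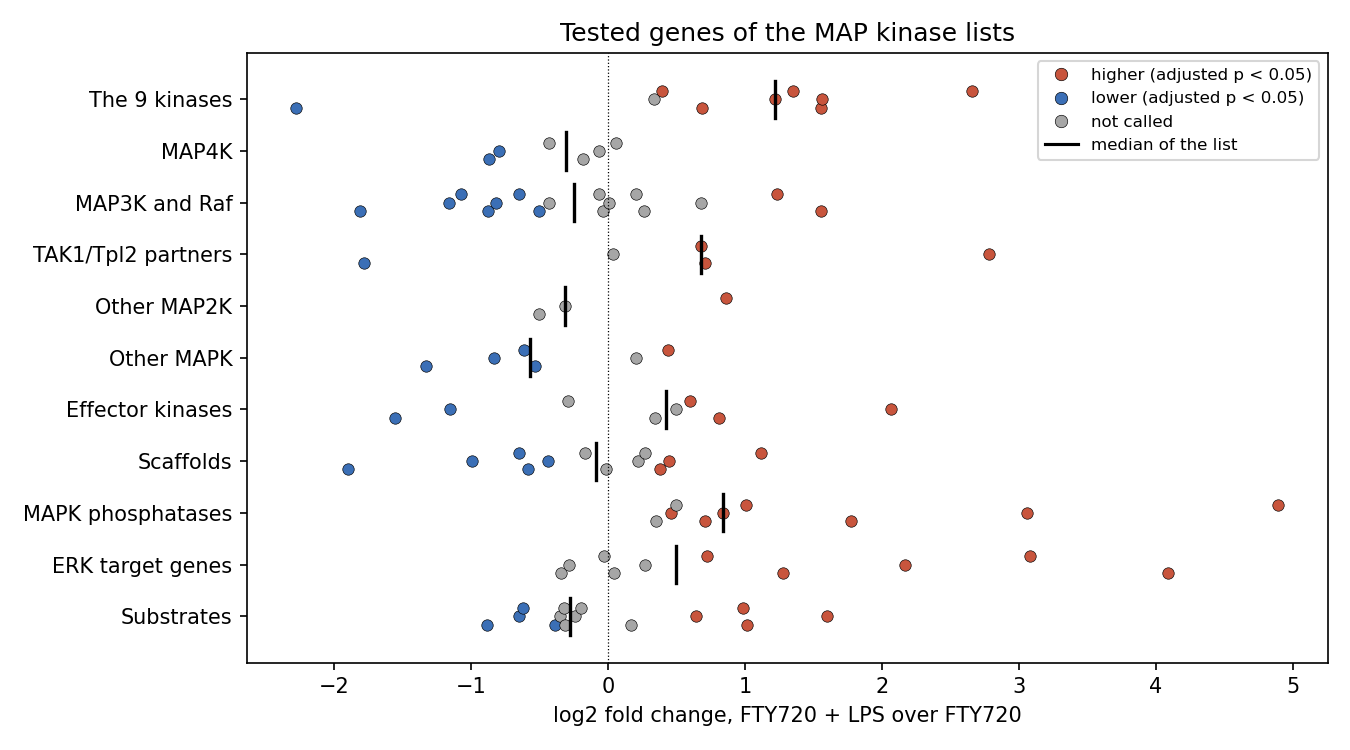
Log2 fold change, FTY720 with LPS over FTY720, of every tested gene in the 9-kinase set and 10 related lists, coloured by the edgeR call, with a black line at each list's median. The 9 kinases have a median of 1.22 and the MAP3K and Raf list one of -0.25; the far right point is Dusp2 at 4.90.

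The genes whose profiles over the 6 libraries lay nearest to a kinase were sought among about 5800 genes with a mean log2 CPM of at least 4, by Euclidean distance of centred log2 CPM. Nearest to Map2k3 were Pvr (distance 0.179), Sertad1 (0.249) and Hspa5 (0.256). Nearest to Map3k8 were Ppa1 (0.104) and Eif4g2 (0.134), among those reported here. Mapkapk3 had no such close neighbour among the genes searched, with Sox2 (0.694), Mtus1 (0.823) and Sephs2 (0.921) nearest. Its own mean log2 CPM of 3.71 lay below the limit of the search. Its low counts with LPS, 8 to 23 reads per library, also add noise to such a distance. The profiles share libraries and are set mainly by the difference between 2 groups.

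Opposite-strand reads of the 9 kinases were few, between 1 and 27 per group and gene. In all but 1 case at least 95.3% of a gene's stranded reads in a library were sense reads, and the exception was Mapkapk3 with LPS, where a library fell to 76.9% with 3 opposite-strand reads in the group. On unstranded counts the same 8 kinases were called in the same directions, when 44.2% of all tested genes were called (22.7% higher, 21.6% lower). With the replicate number as a block the count was again 7 higher and 1 lower, against 44.1% of all tested genes (22.6% higher, 21.4% lower).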

How the data were processed

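For each library the authors deposited raw gene counts in STAR's layout, with columns for both strands together and for each strand. STAR 2.5.1, Trimmomatic 0.33, CASAVA 1.8.2, DESeq2 and the build mm10 are listed in the submitters' processing notes, and the extract protocol in the labels names rRNA depletion and strand-specific libraries; no source used here gives the annotation or the settings. The strand column with 98.4% to 98.9% of gene reads was used. Rows naming no gene were left out; on that strand unmapped reads made up 24.4% to 27.0% of the listed reads, those outside annotated exons 42.2% to 44.5% and multimapping ones 7.69% to 8.15%. Reads shared by near-identical copies are thus uncounted.

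Testing across all genes used edgeR 4.0.16 (R 4.3.3; quasi-likelihood test, TMM, filterByExpr with minimum count 10, Benjamini-Hochberg over 10124 genes, threshold 0.05). The SE is the absolute log2 fold change over the square root of F. log2 CPM used a prior count of 2. Alternatives used limma 3.58.1 and DESeq2 1.42.0. DESeq2 tested 12621 genes under its own filter. Its counts for a list may therefore include listed genes that edgeR did not test. Counting floors cover counting error only, since reads carry no molecular identifiers.

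The 9 kinases and all gene lists were chosen with earlier results of these data known. From each list up to 3 called genes per direction with mean log2 CPM of at least 3 are named, with the partners of 6 of the 7 pairs tested; others are said to be chosen later. A few items that this rule covers are not reported here. The symbol Map3k20 was matched to Zak through RefSeq synonyms, and Map3k21 was not matched. In simulated counts of 9911 genes for this comparison, 95 were changed 2-fold, 94 were changed 4-fold and 9722 were left unchanged. The shares called were 74.7%, 100% and 0.113%, in that order. In the data 46.0% of all tested genes were called, and rates with that many genes changed were not tested. Sampling noise alone did not account for the spread of any replicate pair (chi-square per degree of freedom 1.28 to 4.39). The value for replicates 1 and 2 was 1.31 with FTY720 and 1.28 with LPS added. Pairs with replicate 3 had 3.5 and 4.39 with FTY720, and 1.97 and 1.63 with LPS. In both groups replicates 1 and 2 were thus closer to each other than to replicate 3. Their independence is not known, and 1 alternative sums them.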

Additional observations from a re-analysis of the deposited data

How the results depend on the processing

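Over 17 alternatives Map3k8, Map2k1, Map2k3, Map2k4, Mapkapk2 and Mapkapk3 kept direction and call, and the kinases called numbered 5 to 8 higher and 1 lower, while 24.6% to 50.9% of all tested genes were called. The exceptions were Mapk3, Mapk8 and Mapk14. With total library size alone, which moved the median of all genes by -0.32, Mapk3 stood at 0.065, Mapk14 at 0.36 and Mapk8 at -0.02, 766 genes in all were higher and 5 other cascade genes were higher; 22.2% of calls were then upward, against 50.7% with TMM, 61.6% with DESeq2 (1274 lower) and 38.8% with upper-quartile factors, which moved the median by -0.13. Mapk3 was not called with upper-quartile factors (0.26) or with the expression trend removed (0.08). Leaving out single libraries gave 0.30 to 0.49 for Mapk3 and 0.24 to 0.55 for Mapk8. The causes were not tested. With a pseudocount of 2 the Map2k3 over Map2k6 difference was 4.15. Signs turned for Spag9 (-0.15, trend removed), Map3k7 (-0.056, total library size) and Tnip2 (-0.1 with upper-quartile factors, -0.25 with total library size, -0.003 with length and GC correction, and -0.23 without FTY720 replicate 3, the range without single libraries being -0.23 to 0.28). With the replicate number as a block 7 kinases were higher and 1 lower, with Mapk8 at 0.36 (edgeR adjusted p = 0.0726). Same-numbered samples did not deviate together (correlations -0.02, -0.03 and -0.07). For replicates 1 and 2 that cannot exclude pairing, since they differed by little more than sampling noise (chi-square per degree of freedom 1.31 and 1.28), which hides shared deviations. Replicate 3 differed from them by more (3.5 and 4.39 with FTY720, 1.97 and 1.63 with LPS), and its correlation was -0.07. That is a single sample per group, so whether the numbers pair samples was not settled. Depth limits Mapkapk3, Map2k6 and Mapk11 with LPS to 41, 7 and 3 reads in all.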
